A study of Drosophila melanogaster with 24 samples.

Results

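The genes described here are 10 components and companions of the Jun N-terminal kinase (JNK) pathway of Drosophila melanogaster, followed through the metamorphosis of the genital disc. They are egr, hep, bsk, Jra, kay, puc, scaf, Mmp1, Mmp2 and Timp, taken as the pathway's core, its feedback gene and the genes of epithelial fusion and matrix proteolysis. The choice was made with earlier results of these data known. A gene counted as measured where the array's gene table assigned a probe set to it alone, which held for 9 of the 10, with 17 probe sets, among 11982 genes in all. Mmp1 had none and was not analysed here. The genital disc is the larval primordium of the internal and external genitalia. Discs of both sexes were dissected at 3 stages, with 4 biological replicates in each of 6 groups and 1 Affymetrix Drosophila Genome 2.0 array per replicate, 24 arrays in total. All animals were reared at 25 °C and carried esgGAL4.B, UAS-GFP.nls/CyO, a GAL4 driver at the escargot gene that marked the imaginal discs with nuclear GFP, over the balancer CyO, so no group lacked the transgenes. Larvae of the L3 groups were wandering. P6 animals were taken at about 6 h after puparium formation, when the air bubble of the puparium was largest, and P20 animals at about 20 h, when GFP first showed in the eye disc. Nothing in the labels says how many discs went into a replicate. Values are log2 RMA levels (robust multi-array average), on which 1 unit is a 2-fold difference, and they set no gene's level against another's.

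JNK signalling is a kinase cascade that Drosophila epithelia use in closure, wound repair and cell death. The TNF ligand Eiger (egr) or other upstream inputs lead to the JNK kinase Hemipterous (hep), which activates the JNK Basket (bsk), and Basket in turn acts on the AP-1 proteins Jun (Jra) and Fos (kay). The phosphatase Puckered (puc) is a target of the pathway that turns Basket off, and scarface (scaf), a secreted serine protease homologue without catalytic activity, is a target in embryonic dorsal closure. During metamorphosis the discs evert, spread and fuse, the genital disc also rotates in males, and the matrix metalloprotease genes Mmp1 and Mmp2 and their inhibitor gene Timp act on the basement membrane that such movements cross.

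Correlations between replicate arrays ranged from 0.964 to 0.994 and array medians from 5.04 to 5.18. The genital disc genes expected to differ by sex followed the labels at L3, P6 and P20. The female levels of lz, a gene of the female disc, lay 4.72, 5.12 and 7.15 log2 units above the male ones, and those of Dr lay 5.85, 6.57 and 3.98 below (log2 differences of -5.85, -6.57 and -3.98). Some arrays stood apart. On a line from the L3 mean (0) to the P6 mean (1) over all genes, L3 replicate 1 lay at 0.182 in females and 0.179 in males, and the other L3 arrays between -0.060 and 0.106. Testis markers, a list of 13 genes, were lower in females for 7 genes at P6, 4 at P20 and 0 at L3 (limma, adjusted p under 0.05), and their mean level was highest, at 7.19, in P6 male replicate 3. At L3 that mean was 6.50 in male replicate 2 and 4.03 to 4.69 in the other males. Hemocyte markers (9 genes) fell from L3 to P6 in both sexes, for 7 genes in females and 8 in males, with a median change of -2.27 and -2.60. In females the log2 of their summed level lay between 12.5 and 13.9 at L3 and between 11.1 and 11.4 at P6. In males it lay between 12.5 and 13.8 at L3 and between 11.2 and 11.4 at P6. Fat body markers (4 genes) rose for 2 and 3 genes. Of 5 myoblast and muscle markers, 1 rose and 2 fell over that step in each sex, the latter being Tm2 (-4.09 in females and -3.68 in males) and up (-2.65 and -3.21). Of 4 neuron and glia markers, 3 rose from P6 to P20 in females, and in males 2 rose and gcm fell. The glial gene repo rose by 3.62 and 3.89 and the neuronal gene elav by 1.29 and 1.38. In whole discs, fewer cells of a type and less RNA per cell cannot be told apart, and no detection calls were used to say which markers are absent.

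The first question the design poses is whether the sexes differed in these genes. At L3 none of the 9 passed (adjusted p under 0.05 over all genes tested, limma), against 0.985% of all genes, and at P6 2 of 9 passed, scaf higher and egr lower in females, against 4.83%. At P20 1 of 9 passed, Timp, which was lower in females, against 2.35%. The median female minus male difference of the 9 genes was -0.21, 0.03 and -0.07 log2 units at L3, P6 and P20, beside 0.01, -0.01 and 0.00 over all genes. At L3, 3 of 9 (egr, Timp and kay, each lower in females) had an unadjusted p under 0.05, as did 6.84% of all genes. With a block for replicate number within stage, Timp and kay passed at L3, where 242 in place of 118 of all 11982 genes did. Averaged over stages, 3 of 9 passed, against 6.47% of all genes. They were scaf, higher in females, and egr and Timp, lower in females. For scaf and Timp the average mixes both directions, since their female means were above the male ones at P6 and below them at L3 and P20. The effect of sex depended on stage for 2 genes, scaf and Timp (moderated F test, 1.65% of all genes).

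**Figure D1:**
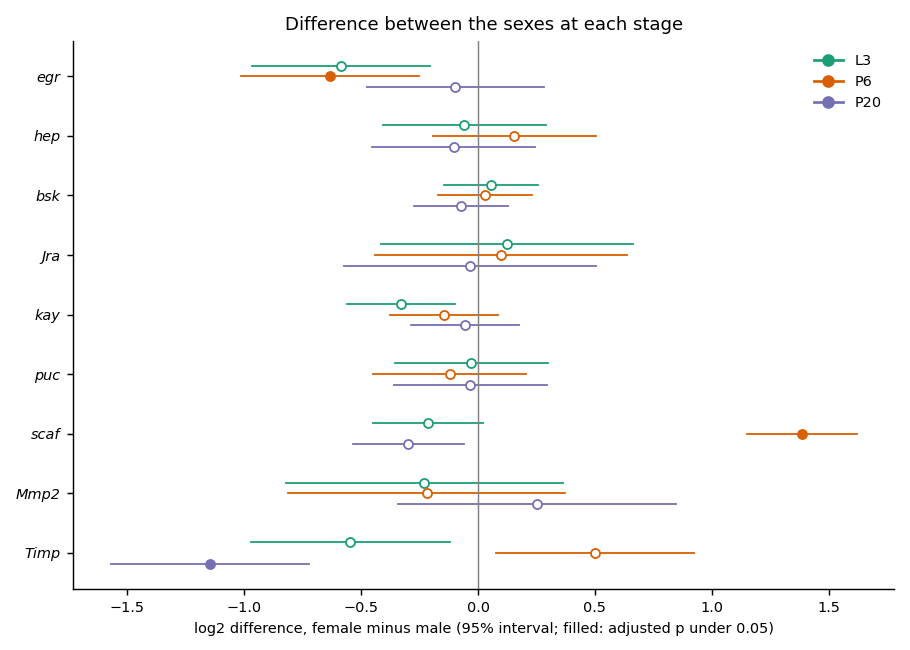
Log2 difference between the sexes (x axis, female minus male, log2 RMA units) for each of the 9 genes at L3, P6 and P20. Points are limma estimates with 95% intervals, filled where the adjusted p was under 0.05: scaf (1.39) and egr (-0.63) at P6 and Timp (-1.15) at P20.

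More of the 9 genes passed between stages. From L3 to P6, 8 of 9 genes passed in females (6 higher at P6 and 2 lower), against 35.6% of all genes (14.6% higher and 21.0% lower). In males 6 of 9 passed (4 higher, 2 lower), against 34.8% (16.3% higher and 18.5% lower). Higher in both sexes were egr, bsk, Jra and Mmp2, and lower in both were hep and kay. Higher in females were scaf and Timp as well. The median change of the 9 genes was 0.68 in females and 0.40 in males, beside -0.09 and -0.04 over all genes. From P6 to P20, Timp alone passed in females, where it fell (26.3% of all genes), while scaf and bsk rose in males (25.7%). From L3 to P20, 6 of 9 passed in each sex, 5 higher and 1 lower. The shares of all genes were 39.9% in females (17.7% higher and 22.2% lower) and 38.1% in males (17.8% and 20.3%). These stage comparisons share arrays and are not independent of one another. Since the genes were chosen with earlier results of these data known, their shares beside those of all genes are descriptions. The hemocyte, fat body and muscle markers moved over the step from L3 to P6, and the neuron and glia markers from P6 to P20, as given above. Tracheal markers moved in both steps. In females and males vvl changed by 2.66 and 0.86, then 0.65 and 1.66. The changes of pio were -1.26 and -1.21, then 1.23 and 1.07. From L3 to P6 the testis markers Mst77F and Mst84Da rose in males (2.98 and 2.27) but did not pass in females. Mst87F rose (1.40 and 1.77) and bam fell (-1.81 and -1.40) in both sexes. He (-3.12 and -3.41) and sns (2.04 and 2.77) also moved from P6 to P20. The part of these markers in the changes of the 9 genes was not tested.

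**Figure D2:**
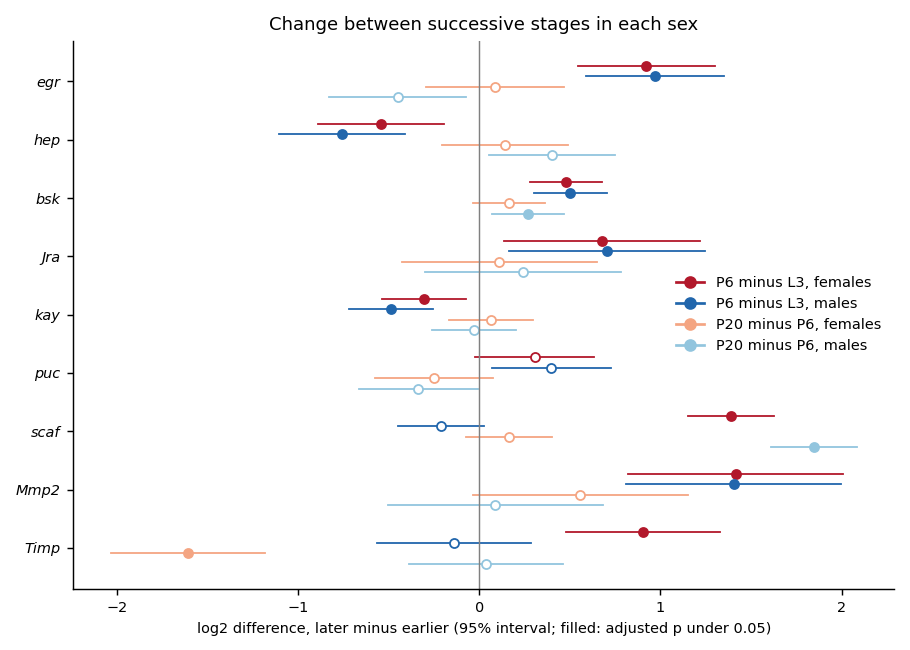
Log2 change between successive stages (x axis, later minus earlier, log2 RMA units) in each sex for the 9 genes, with 95% intervals and filled points where the adjusted p was under 0.05. The change of scaf lay in the first interval in females (1.39) and in the second in males (1.85), and the fall of Timp from P6 to P20 was found in females (-1.61).

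**Figure D3:**
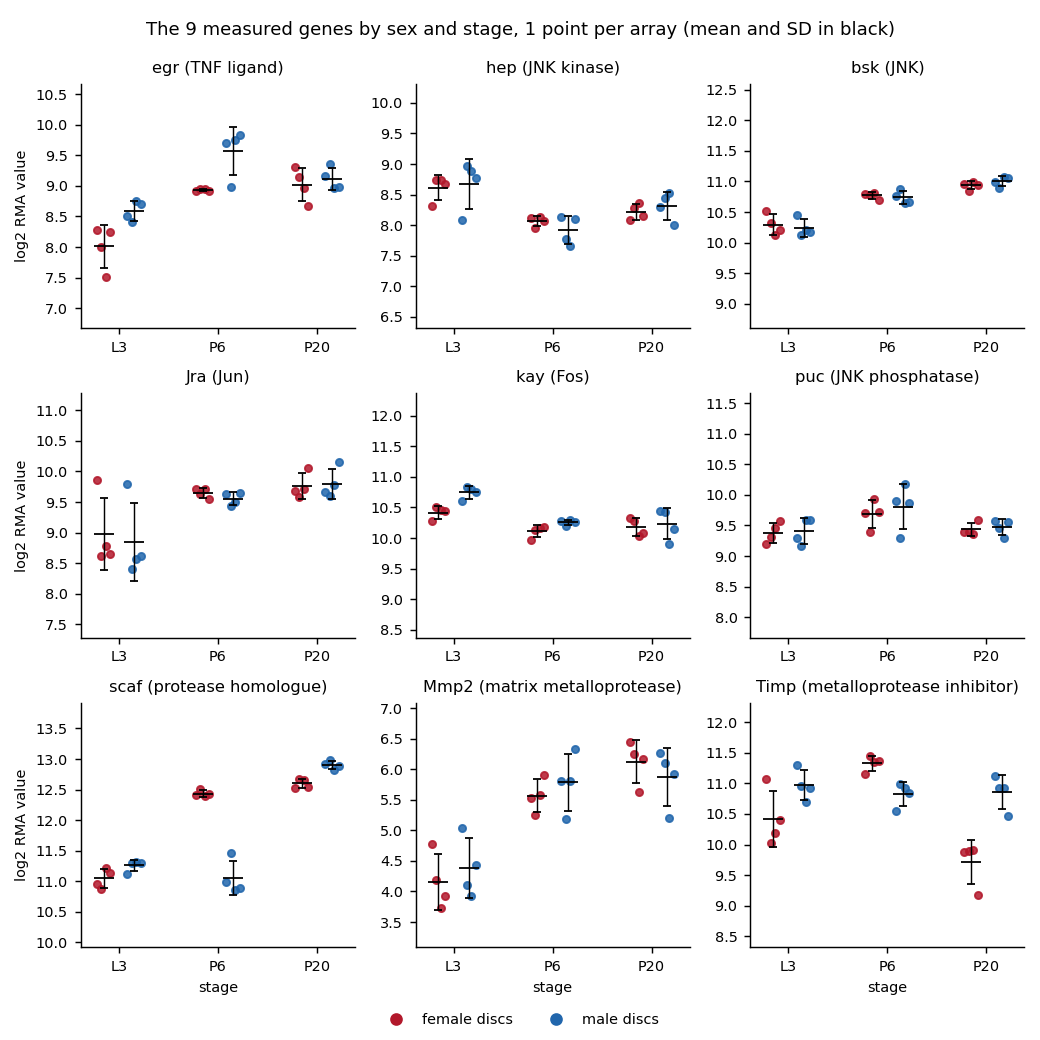
Log2 RMA values (y axis, the same 4-unit height in each panel but a different position) of the 9 genes by stage (x axis), 1 point per array, 4 arrays per group, with the group mean and SD in black. Female and male points of scaf part at P6 and those of Timp at P20, and L3 replicate 1 of both sexes lies above the other L3 arrays in Jra.

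The ligand gene egr, on arm 2R, was lowest in L3 females. Its L3 values were 8.28, 8.01, 7.52 and 8.24 in females and 8.50, 8.41, 8.76 and 8.71 in males. At P6 females gave 8.91, 8.95, 8.95 and 8.92 and males 9.71, 8.98, 9.74 and 9.83. At P20 females gave 9.31, 9.14, 8.96 and 8.67 and males 9.16, 9.36, 8.97 and 8.98. The sexes did not overlap at L3 or P6 and did at P20. The rise from L3 to P6 was 0.92 ± 0.18 (SE) in females (adjusted p = 0.000365) and 0.97 ± 0.18 in males (adjusted p = 0.000263). Every P6 array of a sex lay above every L3 array of it. The female minus male difference was -0.59 ± 0.18 at L3 (adjusted p = 0.209), -0.63 ± 0.18 at P6 (adjusted p = 0.0449) and -0.10 ± 0.18 at P20. A stage dependence of that difference did not pass (F = 2.70, adjusted p = 0.845). The testis markers were higher in males at P6, as given above, and their part in this difference was not tested. The P6 call of egr was lost in 12 of 16 alternatives, with adjusted p from 0.00413 to 0.170, and was strongest without P6 male replicate 2 (-0.83), whose egr level lay far from the other males. Without that array the fall of egr from P6 to P20 in males, -0.45 (adjusted p = 0.0727), became -0.64 (adjusted p = 0.00622). The rise of egr in males from L3 to P20, 0.52 (adjusted p = 0.0272), was lost without replicate 1 or 2 of the L3 males (0.49 and 0.46, adjusted p = 0.0523 and 0.0755) or of the P20 males (0.51 and 0.44, adjusted p = 0.0579 and 0.0881). The second probe set of egr followed the first over the 24 arrays (r = 0.92) and rose by 1.27 and 1.40 from L3 to P6, but its sex difference at P6, -0.64, did not pass (adjusted p = 0.278).

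The kinase genes showed no difference between the sexes that passed. Levels of bsk, the JNK gene on 2L, ran from 10.12 to 10.51 in L3 females and from 10.12 to 10.45 in L3 males. All later arrays lay above these ranges, at 10.65 to 10.87 at P6 and 10.84 to 11.08 at P20. The rise from L3 to P6 was 0.48 ± 0.10 (SE) in females (adjusted p = 0.000434) and 0.50 ± 0.10 in males (adjusted p = 0.000326). From L3 to P20 it was 0.64 and 0.77 (adjusted p = 1.72e-05 and 1.84e-06). A further rise from P6 to P20 in males of 0.27 (adjusted p = 0.0417) was lost in 9 of 16 alternatives (adjusted p 0.0111 to 0.329). The sex difference of bsk at P6 had a 95% interval of -0.17 to 0.23, and at L3 and P20 the intervals were -0.15 to 0.25 and -0.27 to 0.13. Both other probe sets of bsk rose from L3 to P6 in females (1.14 and 0.79), and 1 of them in males (1.11, with 0.44 at an adjusted p of 0.190 for the other).

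The JNK kinase gene hep, on the X, ran the other way. Its L3 arrays gave 8.31, 8.74, 8.74 and 8.68 in females and 8.08, 8.96, 8.88 and 8.78 in males, with replicate 1 the lowest in each sex. At P6 females gave 8.12, 7.96, 8.14 and 8.07 and males 8.13, 7.78, 7.67 and 8.10. The fall was 0.54 ± 0.17 (SE) in females (-0.54, adjusted p = 0.0133) and 0.76 ± 0.17 in males (-0.76, adjusted p = 0.00127). In males the P6 range reached into the L3 range through L3 replicate 1. At P20 the levels were 8.08 to 8.36 in females and 8.01 to 8.53 in males, and neither passed against L3 (-0.40, adjusted p = 0.0592, and -0.36, adjusted p = 0.0973). Without both L3 arrays numbered 1, a choice made after seeing the data, these became -0.50 (adjusted p = 0.00288) and -0.55 (adjusted p = 0.00141).

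The probe sets of hep disagreed. One other set fell with the first from L3 to P6, by 0.50 in females and 0.72 in males (-0.50, adjusted p = 0.0127, and -0.72, adjusted p = 0.000892). The third ran against them over the 24 arrays (r = -0.49 with the first). It rose from L3 to P20 in females by 0.76 ± 0.22 (SE, adjusted p = 0.00804), and its male change of 0.23 did not pass (adjusted p = 0.438). The fall of hep at P6 is therefore a statement about 2 of 3 probe sets. With the mean of the 3 it did not pass in females (-0.21, adjusted p = 0.124).

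**Figure D4:**
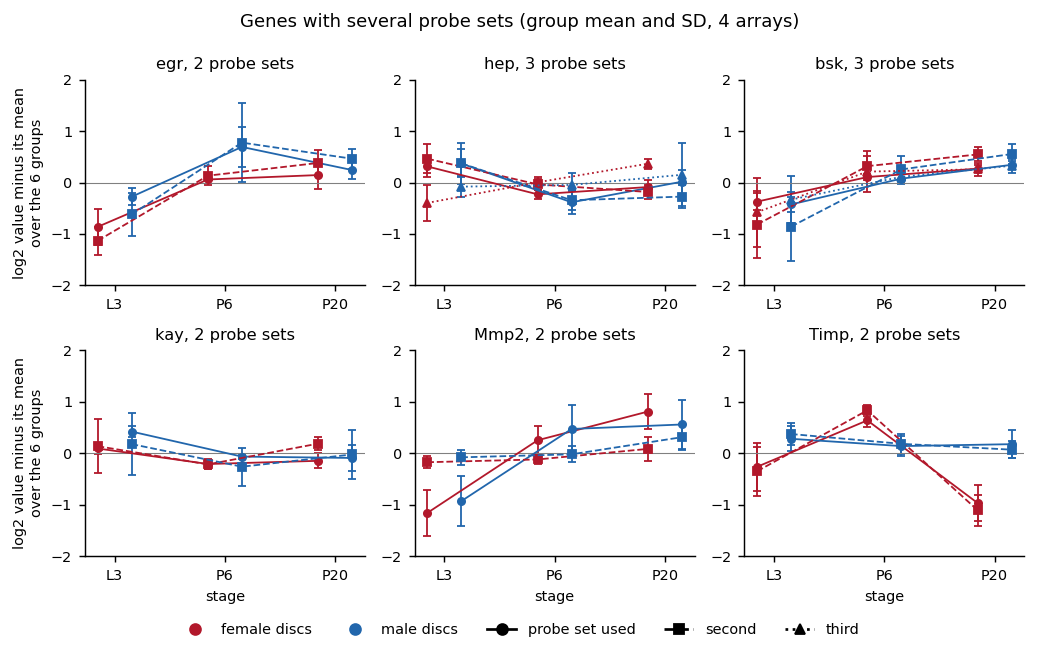
Group means and SDs (4 arrays) of every probe set of the 6 genes that have several, by stage (x axis), each drawn as its log2 value minus its own mean over the 6 groups (y axis). The lines of egr, bsk and Timp run together, the third set of hep (dotted, rising in females by 0.76 from L3 to P20) crosses the others, and the second set of Mmp2 moves less than the first.

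Of the AP-1 genes, Jra (Jun, on 2R) was marked by the 2 arrays that stand apart. Its L3 levels were 9.86, 8.62, 8.78 and 8.64 in females and 9.80, 8.41, 8.57 and 8.62 in males. Replicate 1 of each sex therefore lay in the range of the later stages, which was 9.43 to 9.72 at P6 and 9.59 to 10.15 at P20. With all arrays the rise from L3 to P6 was 0.68 ± 0.26 (SE) in females (adjusted p = 0.0443) and 0.70 ± 0.26 in males (adjusted p = 0.0372), each lost in 8 of 17 alternatives. Without both L3 arrays numbered 1, a choice made after seeing their levels, it was 0.97 (adjusted p = 3.25e-06) and 1.02 (adjusted p = 1.98e-06). Without L3 male replicate 2 the male rise of Jra was 0.56 and did not pass (adjusted p = 0.122). From L3 to P20 the rise was 0.79 and 0.95 (adjusted p = 0.0183 and 0.00601). Differences between the sexes were 0.13, 0.10 and -0.03 at the 3 stages, and none passed. The Jra probe set, like that of scaf, is of the kind named _s_at, which in the maker's naming may also match other transcripts. The table of assembly Release 6 places Jra near egr, with 2 protein-coding genes starting between them.

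The Fos gene kay, on 3R, was highest in L3 males, at 10.60, 10.83, 10.80 and 10.75, above the L3 females at 10.27, 10.50, 10.45 and 10.44. Those groups did not overlap, but the difference of -0.33 ± 0.11 (SE) did not pass (adjusted p = 0.280). It did pass with a block for replicate number within stage, as given below under the alternatives. At P6 the levels were 9.97 to 10.19 in females and 10.20 to 10.30 in males, again apart and below the L3 range of their sex. The fall from L3 to P6 was 0.49 ± 0.11 in males (-0.49, adjusted p = 0.00166) and 0.30 ± 0.11 in females (-0.30, adjusted p = 0.0362), where 8 of 17 alternatives lost the call. From L3 to P20 kay fell by 0.51 in males (-0.51, adjusted p = 0.00094), and the female value of -0.24 did not pass (adjusted p = 0.0889). Its second probe set was dim, at 4.25 to 5.91, was only weakly related to the first over the arrays (r = 0.16), and changed in no comparison. Jra and kay thus moved in opposite directions from L3 to P6, in females and in males.

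The phosphatase gene puc, on 3R, was the 1 measured gene of the 9 that passed in no comparison. Its group means spanned 0.43 log2 units, from 9.38 in L3 females to 9.81 in P6 males, and each group overlapped the next in that order. At P6 males gave 9.90, 9.29, 10.17 and 9.87 and females 9.70, 9.39, 9.94 and 9.72, against 9.16 to 9.59 over the 8 L3 arrays. The male difference from L3 to P6 was 0.40 ± 0.16 (SE, 95% interval 0.07 to 0.73, adjusted p = 0.0521) and the female one 0.31 (95% interval -0.02 to 0.63, adjusted p = 0.138). The male value was decided by single arrays. It passed without P6 male replicate 2 (0.57, adjusted p = 0.00408) and in 6 other alternatives, and had an adjusted p of up to 0.218 in the rest. Without that array puc also fell from P6 to P20 in males (-0.51, adjusted p = 0.0109), where the value with all arrays was -0.34 (adjusted p = 0.123).

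The protease homologue gene scaf, on 2R, showed the largest sex difference of the 9 genes. At L3 females gave 10.96, 10.88, 11.21 and 11.13 and males 11.13, 11.30, 11.32 and 11.30. At P6 females gave 12.41, 12.51, 12.40 and 12.42, and males 10.98, 11.47, 10.86 and 10.89. At P20 females gave 12.52, 12.68, 12.66 and 12.54 and males 12.91, 12.98, 12.82 and 12.89. All P6 females therefore lay above all P6 males, all P20 males above all P20 females, and the L3 groups overlapped. In order of level, P20 males, P20 females and P6 females stood apart from one another and from the rest, and L3 males, P6 males and L3 females overlapped with their neighbours.

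At P6 scaf was 1.39 ± 0.11 log2 units (SE) higher in females, a 2.61-fold difference (limma, adjusted p = 2.75e-08). In females it rose by 1.39 ± 0.11 from L3 to P6 (adjusted p = 1.67e-09) and changed by 0.17 from P6 to P20, which did not pass (adjusted p = 0.325). In males the change from L3 to P6 was -0.21 (adjusted p = 0.155), and it then rose by 1.85 ± 0.11 from P6 to P20, or 3.60-fold (adjusted p = 1.45e-11). By P20 the rise from L3 was 1.56 in females and 1.64 in males, and the sex difference of -0.30 did not pass (adjusted p = 0.296). The difference between the sexes in the change itself was 1.60 ± 0.16 from L3 to P6 (adjusted p = 4.27e-06; 0.810% of all genes passed) and -1.68 ± 0.16 from P6 to P20 (adjusted p = 1.14e-06; 1.15% passed), with F = 71.2 overall (adjusted p = 4.63e-07). The P6 sex difference remained between 1.32 and 1.52 when each P6 male array was left out, and without male replicate 3, the array with the highest testis markers, scaf gave 1.32 (adjusted p = 3.29e-07). Without L3 male replicate 2, whose testis markers stood apart from the other L3 males, the difference between the sexes in the L3 to P6 change of scaf was 1.59 (adjusted p = 2.22e-05). Mean testis marker levels lay between 5.30 and 7.19 on the P6 male arrays and between 4.04 and 4.69 on the P6 female ones. Leaving out 1 array does not remove that difference in the markers, and its part in the scaf difference was not tested. Markers of other cell types also differed between the sexes at P6. Of 5 tracheal markers vvl (1.10) and kni (1.72) were higher and btl (-1.17) lower in females. Of the hemocyte markers Pxn was lower in females (-0.88, limma, adjusted p = 0.0250). Of 4 neuron and glia markers gcm was lower (-5.49), while repo (0.20), elav (-0.07) and nSyb (0.18) did not pass. The part of these markers in the scaf difference was not tested. Without P6 male replicate 2, the highest male, the male change of scaf from L3 to P6 was -0.35 and passed (adjusted p = 0.00794).

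The matrix metalloprotease gene Mmp2, on 2R, was dim at L3, with group means of 4.15 and 4.38 below the median of every array, and rose in both sexes. At L3 females gave 4.77, 4.18, 3.72 and 3.92 and males 5.04, 4.11, 3.93 and 4.43. At P6 females gave 5.53, 5.25, 5.57 and 5.91 and males 5.81, 5.18, 5.81 and 6.33. All P6 arrays lay above all L3 arrays. The rise was 1.41 ± 0.28 (SE) in females (adjusted p = 0.000441) and 1.40 ± 0.28 in males (adjusted p = 0.000568). Whether the L3 values lay above background is unknown, so no linear fold is given. At P20 the levels were 6.45, 6.24, 5.63 and 6.17 in females and 6.27, 6.10, 5.20 and 5.91 in males, 1.97 and 1.49 above L3 (adjusted p = 1.12e-05 and 0.000287). The sexes overlapped at each stage, with differences of -0.23, -0.22 and 0.25, and none passed. The change from P6 to P20, 0.56 in females (adjusted p = 0.164) and 0.09 in males, did not pass. A second probe set of Mmp2 stayed between 2.96 and 3.83 on all arrays and followed the first weakly (r = 0.33). It differed by 0.05 and 0.06 from L3 to P6 in females and males, so the rise at P6 rests on 1 probe set, and from L3 to P20 it rose by 0.39 in males (adjusted p = 0.0223), with 0.26 in females (adjusted p = 0.124).

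The inhibitor gene Timp, on 3R, changed in females. At L3 females gave 11.07, 10.03, 10.18 and 10.40 and males 11.29, 10.96, 10.70 and 10.92. At P6 females gave 11.15, 11.46, 11.34 and 11.36 and males 10.55, 10.98, 10.92 and 10.85. At P20 females gave 9.87, 9.90, 9.92 and 9.18 and males 11.12, 10.93, 10.92 and 10.47. The females thus lay above all males at P6 and below all males at P20, and the males of the 3 stages overlapped. In order of level the P20 females stood apart from the L3 females next above them.

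In females Timp rose by 0.90 ± 0.20 (SE) from L3 to P6 (adjusted p = 0.00128) and fell by 1.61 ± 0.20 from P6 to P20 (-1.61, 3.05-fold, adjusted p = 1.81e-06). The male values were -0.14 (95% interval -0.57 to 0.28) and 0.04 (95% interval -0.39 to 0.46). At P20 females were 1.15 ± 0.20 below males (-1.15, 2.21-fold, adjusted p = 0.00116). Without P20 female replicate 4, the lowest array, this Timp difference was -0.97 (adjusted p = 0.00699). The sexes diverged in the change from P6 to P20 by -1.65 ± 0.29 (adjusted p = 0.00198), with F = 17.0 overall (adjusted p = 0.0048). In the change from L3 to P6 the difference of 1.05 ± 0.29 did not pass (adjusted p = 0.110), but did without L3 female replicate 1 (1.26, adjusted p = 0.0141). Without that array Timp also passed as lower in females at L3 (-0.76, adjusted p = 0.0455), against -0.55 with all arrays (adjusted p = 0.405). The P6 difference of 0.50 did not pass (adjusted p = 0.233). From L3 to P20 the female fall of 0.71 (-0.71, adjusted p = 0.00814) was lost when the compared groups were fitted alone (adjusted p = 0.0569). The second probe set of Timp followed the first closely (r = 0.98) and passed in 3 places of interest: lower in females at P20 (-1.18, adjusted p = 0.000348), higher at P6 (0.65, adjusted p = 0.0479) and in the difference of the L3 to P6 changes (1.38, adjusted p = 0.0105).

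Other genes that feed into JNK were read as a list of 21, of which 14 were measured, from receptors to kinases. None differed between the sexes at any of the 3 stages (adjusted p under 0.05). Of all genes, 0.985%, 4.83% and 2.35% did at L3, P6 and P20, so few calls would be looked for among 14. From L3 to P6, 3 rose and 2 fell in females (median change 0.12), and 2 rose and 3 fell in males (median -0.03). These 5 of 14 in each sex are close to the 35.6% and 34.8% of all genes. Traf4, an adaptor of TNF receptors, rose by 0.75 and 0.93 (adjusted p = 0.000214 and 2.28e-05), and Ask1, a kinase upstream of the JNK kinases, fell (log2 change -0.76 and -0.72, adjusted p = 0.00268 and 0.00431). From P6 to P20, 6 rose and 1 fell in females (median 0.41, beside 0.04 over all genes), and 4 rose and 2 fell in males (median 0.22, beside 0.01). Of all genes, 14.2% rose and 12.1% fell over that step in females and 13.1% and 12.6% in males. The TNF receptor gene wgn rose by 0.74 and 0.59 (adjusted p = 2.33e-06 and 5.02e-05), the JNK kinase gene Mkk4 by 0.66 in each sex (adjusted p = 0.00129 and 0.00137) and Traf4 by 0.74 and 0.63 (adjusted p = 0.000309 and 0.0017).

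Genes that restrain JNK or pair with AP-1, 6 of 7 measured, had 2 that fell from L3 to P6 in each sex and none that rose. The shares of all genes that rose and fell there were 14.6% and 21.0% in females and 16.3% and 18.5% in males. The 2 genes of the list were Atf3, a bZIP partner of Jun, which fell (log2 change -3.17 and -3.89, adjusted p = 8.36e-08 and 3.55e-09), and raw, a restraint on JNK in dorsal closure, which fell (log2 change -0.81 and -1.13, adjusted p = 0.00269 and 0.000138). From P6 to P20 CYLD rose by 1.04 and 0.81 (adjusted p = 0.00486 and 0.0275) and peb by 0.66 and 0.96 (adjusted p = 0.0271 and 0.00179). Atf3 fell further in females over that step (-1.05, adjusted p = 0.0188). Among known readouts of JNK, 13 of 17 measured, 4 rose and 3 fell at P6 in females and 3 rose and 4 fell in males, against the same shares of all genes. Ilp8, a relaxin-like hormone that damaged discs secrete, rose by 3.64 ± 0.28 (SE) in females and 1.92 ± 0.28 in males (adjusted p = 6.11e-10 and 1.37e-05), and was 1.51 ± 0.28 higher in P6 females than P6 males (adjusted p = 0.00148). It then fell (log2 change -3.70 and -1.78) to P20, and its stage dependence on sex passed (F = 14.5, adjusted p = 0.0103). The readouts did not move as one: cher, which encodes filamin, fell at P6 (log2 change -4.09 and -3.89, adjusted p = 1.24e-13 and 3.2e-13), and the signalling gene dpp (log2 change -0.82 and -0.92). The hemocyte markers fell over the same interval, as given above. Their part in these falls was not tested.

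Of the epithelial fusion list, 16 of 21 measured, none differed between the sexes at any stage. The shares of all genes that did were 0.985%, 4.83% and 2.35% at L3, P6 and P20. From L3 to P6, 5 rose and 2 fell in females and 4 rose and 1 fell in males, and from P6 to P20, 6 rose and 0 fell in females and 6 rose and 1 fell in males. The shares of all genes that rose and fell were 14.6% and 21.0% in females and 16.3% and 18.5% in males over the first step, and 14.2% and 12.1%, and 13.1% and 12.6%, over the second. The GATA factor gene pnr, which acts in thoracic closure, rose from P6 to P20 by 1.33 and 1.21 (adjusted p = 0.00156 and 0.00404). Pvf2, a ligand of the PDGF and VEGF type receptor, rose by 0.93 and 1.33 from L3 to P6 (adjusted p = 0.00522 and 0.00027). Mad, the transducer of Dpp signals, rose from P6 to P20 by 0.39 and 0.61 (adjusted p = 0.011 and 0.000202). The 5 measured p38 and ERK kinase genes had 1 that rose and 2 that fell at P6 in each sex: p38a rose by 1.24 and 1.25, while lic, a p38 kinase kinase, and the ERK phosphatase gene Mkp3 fell.

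**Figure D5:**
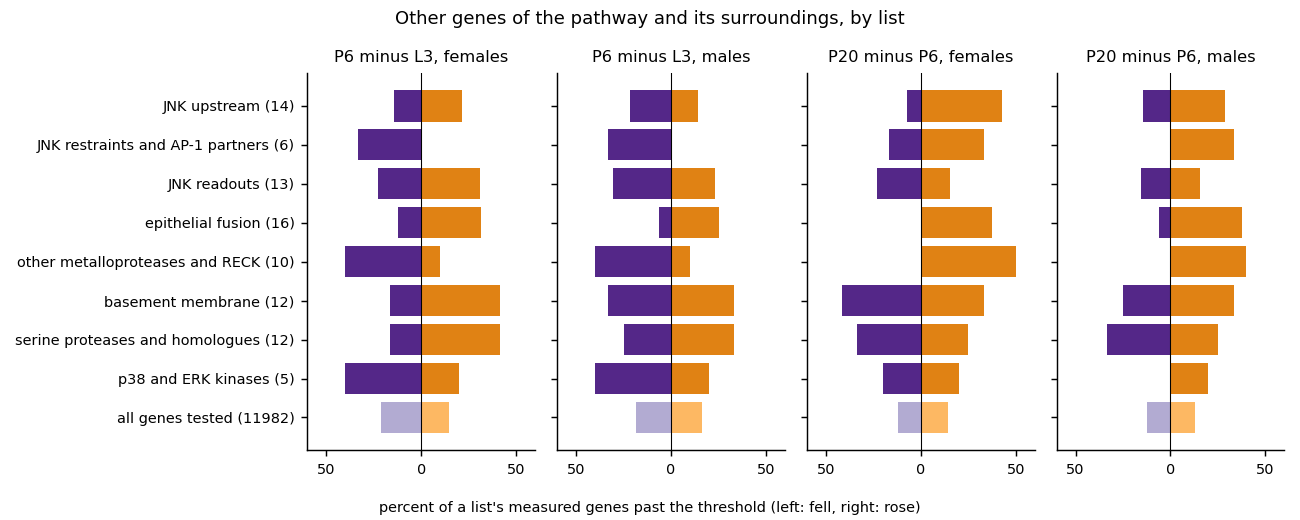
Share of each list's measured genes (number in parentheses) that rose (right, percent) or fell (left, percent) at an adjusted p under 0.05 in each sex between successive stages, with all 11982 genes tested in pale bars. Other metalloproteases and RECK fell for 4 of 10 genes from L3 to P6 in each sex and rose for 5 and 4 of 10 from P6 to P20.

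Of 10 other metalloprotease genes, with the membrane-bound protease inhibitor gene Reck counted among them, 4 fell and 1 rose from L3 to P6 in each sex. Over all genes falls also outnumbered rises there (21.0% against 14.6% in females and 18.5% against 16.3% in males). In the list, 5 rose in females and 4 in males from P6 to P20, with 0 falls. The shares of all genes that rose and fell there were 14.2% and 12.1% in females and 13.1% and 12.6% in males. Of the tolloid proteases, tld fell (log2 change -4.02 and -3.97, adjusted p = 8.29e-13 and 1.18e-12) and rose again by 2.56 and 3.21, and tok fell (log2 change -1.66 and -1.63). AdamTS-B fell from L3 to P6 (log2 change -2.76 and -2.10, adjusted p = 8.08e-09 and 7.13e-07). The secreted protease gene AdamTS-A fell (log2 change -1.77 and -2.36) and rose by 1.57 and 2.67. Reck was lower in females at L3 by 1.05 ± 0.17 (SE; -1.05, adjusted p = 0.000953) and at P6 by 0.60 (-0.60, adjusted p = 0.045). AdamTS-A was lower in females at P20 (limma, -0.75, adjusted p = 0.0262). Its sex difference changed from P6 to P20 by -1.10 (adjusted p = 0.0351).

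Basement membrane genes, 12 of 12 measured, changed in both directions. From L3 to P6, 5 rose and 2 fell in females and 4 rose and 4 fell in males. The shares of all genes that rose and fell there were 14.6% and 21.0% in females and 16.3% and 18.5% in males. From P6 to P20, 4 rose and 5 fell in females and 4 rose and 3 fell in males. The shares of all genes were 14.2% and 12.1% in females and 13.1% and 12.6% in males. The dystroglycan gene Dg rose from L3 to P6 by 2.06 and 1.81 (adjusted p = 6.35e-09 and 6.06e-08). Ppn, which encodes papilin, fell over that step (log2 change -1.33 and -0.67) and rose from P6 to P20 by 1.97 and 1.23 (adjusted p = 8.34e-10 and 1.64e-06). The collagen IV genes vkg and Col4a1 fell from P6 to P20, vkg (log2 change -3.13 and -3.67, adjusted p = 3.03e-09 and 2.3e-10) and Col4a1 (-2.82 and -3.12). Ndg, which encodes nidogen, was 1.67 ± 0.30 (SE) higher in females at P6 (adjusted p = 0.00116) and 1.18 ± 0.30 lower at P20 (-1.18, adjusted p = 0.034), and its dependence on stage passed (F = 22.7, adjusted p = 0.000926). The laminin alpha gene wb was lower in females at L3 and P6 (-1.28 and -1.49, adjusted p = 1.77e-06 and 6.87e-08). Fat body and hemocytes also make collagen IV. In the step from P6 to P20, 0 of 4 fat body markers passed as lower in females and 1, Fbp1, in males. In females and males Fbp1 changed by -1.99 and -2.26 and Fbp2 by -0.92 and -1.66. The changes of apolpp were -0.12 and -0.03 and those of Lsp2 0.47 and 0.35. Of 9 hemocyte markers, 1 passed as lower in females and 2 in males. They were He (-3.12 and -3.41) and, in males, Pxn. Higher were crq in both sexes (0.62 and 0.54) and srp in males (1.23). The part of these cell types was not tested.

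Serine proteases and homologues, the family of scaf, had 12 of 15 measured. From L3 to P6, 5 rose and 2 fell in females and 4 rose and 3 fell in males. The shares of all genes that rose and fell there were 14.6% and 21.0% in females and 16.3% and 18.5% in males. Sb, a membrane protease of disc eversion, rose by 3.72 and 3.71 (adjusted p = 2.85e-12 and 3.73e-12), and flz (filzig) by 5.45 and 5.53 (adjusted p = 1.97e-10 and 1.57e-10). From P6 to P20 Sb fell (log2 change -2.89 and -2.40) and flz (log2 change -5.21 and -4.40). At P6 the 1 gene of this list that differed between the sexes was ea, the easter protease of the dorsal-ventral cascade, 0.76 ± 0.22 higher in females (adjusted p = 0.042). This 1 of 12 stands beside 4.83% of all genes.

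The 4 genes scaf, Timp, egr and Mmp2 had group means that spanned 1.5 log2 units or more, and for each the 3 genes with the most similar values over the 24 arrays were read out. These are descriptions, since all arrays share the same 6 groups and normalization. For scaf they were Syn2 (r = 0.93), sing (r = 0.92) and E(spl)mdelta-HLH (r = 0.90), the last a repressor of the Enhancer of split complex. For Timp they were E(spl)malpha-BFM (r = 0.88), the proneural gene ac (r = 0.83) and E(spl)m4-BFM (r = 0.76). For egr they were beat-IIIc, the laminin gene wb and roq (r = 0.85, 0.85 and 0.84), and for Mmp2 the protease gene Np, Myo10A and the adhesion receptor gene Cirl (r = 0.95, 0.94 and 0.94).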

How the data were processed

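The deposited table holds log2 RMA values of 18952 probe sets on 24 arrays, made by the authors with RMA per the submitters' processing notes. Its version and settings and the genome build of the array annotation are not given in the sources used here. Per the labels' protocols, 20 ng of total RNA was labelled with the NuGEN Ovation kit. No background levels or detection calls were used, and precision is limited by how many arrays there are. The 183 controls, 402 probe sets with several genes and 4720 with none were left out. Where a gene had more than 1 probe set, its brightest on average stood for it, leaving 11982 genes with no filter on low values.

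Differences were fitted in R 4.3.3 with limma 3.58.1 (lmFit and eBayes, 1 mean per group, 18 residual degrees of freedom) on the log2 scale, two-sided, with Benjamini-Hochberg adjustment over all genes of a comparison and a threshold of 0.05. The procedure was run on simulated data with independent normal noise and few genes changed in 1 group. Those data lacked outlying arrays and shared deviations of same-numbered arrays, so the run does not vouch for the calls given here. Sex differences are female minus male and stage differences later minus earlier. The 10 genes and the 16 gene lists (8 of the pathway and its surroundings, 8 of cell types) were chosen with earlier results of these data known. All 10 genes are named whatever their values, and genes of other lists are drawn, in each comparison apart, from the up to 4 of a list with the smallest adjusted p among those that passed there.

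Same-numbered female and male arrays deviated together at P20 (r from 0.11 to 0.42 over genes), and not in every pair at L3 or P6. At L3 r was 0.68, 0.36 and 0.31 for replicates 1, 2 and 3 and 0.07 for replicate 4, and at P6 it ran from 0.03 to 0.28. The pairing rests on this check, since no label explains the numbers. Alternatives were median centring, a trend with robust eBayes, genes with a mean of 5 or more, averaging the probe sets of a gene, testing each probe set, the compared groups alone, blocks for replicate number and leaving out each array. Leaving out both L3 arrays numbered 1 was added after seeing the data.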

Additional observations from a re-analysis of the deposited data

Results flagged for a closer look

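In groups of 4 arrays, 14 of 102 held 1 array far from the other 3 for a probe set of these genes. The rule flags about 1 in 20 groups of independent normal values. The 102 groups come from the same 24 arrays, and some probe sets of a gene move together (r = 0.98 for Timp). Whether the count exceeds chance was therefore not tested. At L3, replicate 1 was high for Jra in females (9.86) and in males (9.80), high for the third hep probe set in females (7.11) and males (7.21), low for the hep set used in females (8.31), and low for scaf in males (11.13). At P6, male replicate 2 was low for egr in both probe sets (8.98 and 7.18), and female replicate 2 was high for the second Timp set (11.21). At P20, female replicate 4 was low for Timp (9.18) and for the second egr set (7.54) and high for puc (9.60), male replicate 4 was low for the second Timp set (10.05), and male replicate 3 was low for the third hep set (6.23).

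The sex difference of scaf changed between stages, by 1.60 from L3 to P6 and by -1.68 from P6 to P20 (F = 71.2), and that of Timp by -1.65 from P6 to P20 (F = 17.0). These 5 were flagged because the difference itself passed in limma, so their passing is the rule of selection and no further support.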

How the results depend on the processing

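Of 40 member results that passed, 28 kept their call under every alternative run and 0 of them changed sign. The number of the 9 genes past the threshold moved as follows. At P6 between the sexes it was 1 in place of 2, without egr, under median centring, with genes of mean 5 or more, with the mean of probe sets, with the compared groups alone and with the replicate block over all arrays. Averaged over stages it was 1 in place of 3 under median centring, without egr and Timp. From P6 to P20 in males it was 1 in place of 2, without bsk, with the mean of probe sets, the compared groups alone and the replicate block within sex, and in females it was 2 in place of 1 with the groups alone, adding Mmp2. In the sex by stage term from L3 to P6 it was 2 in place of 1, adding Timp, with the mean of probe sets, the replicate block within stage and both L3 arrays numbered 1 left out. At L3 the replicate block within stage gave 2 in place of 0 (Timp, adjusted p = 0.0147, and kay, 0.0344). At P20, where the numbers pair the arrays, the block changed no call of these genes in the sex comparison.

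Leaving out 1 array gave 0 to 1 of the 9 genes between the sexes at L3, 1 to 2 at P6 and 1 at P20. It gave 6 to 8 in females and 5 to 7 in males from L3 to P6, 1 in females and 1 to 4 in males from P6 to P20, and 5 to 7 and 5 to 6 from L3 to P20. Averaged over stages it gave 2 to 3, and in the sex by stage terms 1 to 2 from L3 to P6 and 2 otherwise. The 4 in males came without P6 male replicate 2, with puc and egr added as lower. Averaged over stages, Timp (-0.40, adjusted p = 0.044) was lost in 18 of 32 alternatives. The causes of these moves were not tested.

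Over all genes, counts moved by more than 1.5 times in 10 cases. With genes of mean 5 or more, 254 in place of 579 passed between the sexes at P6 and 468 in place of 775 averaged over stages. With the groups alone, 44 in place of 118 passed between the sexes at L3 and 57 in place of 97 in the sex by stage term from L3 to P6. With the replicate block within stage the same counts were 242 and 170, with 1251 averaged over stages and 304 in place of 198 for the interaction. The term from L3 to P6 also called 190 without L3 male replicate 2 and 160 without P6 male replicate 4.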
